A study of Mus musculus with 2 samples.

Results

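Imprinted genes were examined in nuclei of C2C12, a mouse myoblast line. The 10 genes were taken by symbol: the long noncoding RNAs (lncRNAs) Kcnq1ot1, H19, Meg3, Rian, Mirg and Airn, and the protein-coding genes Igf2, Igf2r, Peg3 and Dlk1. All 10 were among the 55414 genes of the matrices. The study compared 2 single-nucleus libraries made with Chromium v3 chemistry, 1 for each condition. In situ polyadenylated nuclei were incubated for 25 min at 37 °C with yPAP, a yeast enzyme that extends RNA 3′ ends with adenines. Standard nuclei had no such step and therefore no warm incubation either, so enzyme and incubation cannot be told apart. The enzyme mix held the RNase inhibitor SUPERase•In. For tissue sections, the paper reports that longer transcripts still degraded with this inhibitor while RNAs were being tailed. RNA integrity in the nuclei was not tested here, so any such loss cannot be told apart from the other differences. Nuclei of both libraries were fixed in methanol, and 3300 were loaded for a target of 2000. The labels name 1 cell line and no separate cultures, so the line and its passage limit what the nuclei stand for.

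Imprinted genes are expressed mainly from the copy inherited from a given parent, and they lie in clusters under a shared control region. In several clusters a long noncoding RNA is made from the chromosome on which neighbouring protein-coding genes are silent. Kcnq1ot1 and Airn are such RNAs; they stay at their site of transcription in the nucleus and repress neighbouring genes in cis. H19 and Igf2, a growth factor, share enhancers in muscle and other mesoderm, and the Dlk1, Meg3, Rian and Mirg cluster holds many miRNA and snoRNA genes. The counts do not separate parental alleles, so nothing below refers to the allele that was read.

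Nuclei were barcodes with over 750 UMIs (unique molecular identifiers) in the kallisto matrix and under 5% mitochondrial UMIs. This left 1335 in situ polyadenylated nuclei with 1974403 UMIs and a median of 1088 UMIs, and 1123 standard nuclei with 1382984 UMIs and a median of 996. The same nuclei held 11545281 and 6237950 UMIs in the STAR matrix, which lacked 7 of the in situ polyadenylated nuclei. The libraries shared 0 nuclear barcodes. UMIs of rRNA genes were 48.3% of those in in situ polyadenylated nuclei and 29.4% of those in standard nuclei. UMIs of genes annotated as miRNA were 18.5% in in situ polyadenylated and 0.51% in standard nuclei. Levels scaled to equal library totals (CPM) were lower for most other genes in the former: the log2 CPM ratio of the median protein-coding gene was -1.19 (2117 genes) in the kallisto matrix and -1.92 (7752 genes) in the STAR matrix, and relative ratios below are given after subtracting it. All 6 myoblast markers had UMIs in both libraries, with a sum of 307 CPM in in situ polyadenylated and 723 CPM in standard nuclei. The 8 markers of differentiated muscle had 75 CPM in in situ polyadenylated and 88.9 CPM in standard nuclei. These were 148 and 123 kallisto UMIs, 99 and 77 of them from Myh3. Of 5 markers of other cells, Cdh5, Epcam and Sox10 were at 0 in both kallisto sums, Ptprc had 0 and 4 UMIs, and Pecam1, an endothelial adhesion gene, had 10 and 35.

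With 1 library per group there was no replicate check and no test. Intervals are 95% intervals that cover counting error only, exact for a count, for a share of nuclei (Clopper-Pearson) or for a ratio of 2 Poisson counts. A gene was called past 2-fold where its relative log2 ratio was at least 1 in size and the interval excluded 0. A count of 0 entered a ratio as a floor of 3 UMIs, and no ratio was formed where both counts were at or under that floor. Of the 8430 genes with at least 20 kallisto UMIs in both libraries together, 3.2% were called higher and 8.66% lower in in situ polyadenylated nuclei. For STAR, with 13858 such genes, 15% were higher and 2.25% lower. By CPM without the centring, 1.45% were higher and 73.2% lower with kallisto, and 4% were higher and 82.1% lower with STAR.

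Of the 10 imprinted genes, 5 had a measurable ratio in the kallisto matrix, and 5 were at or under 2 UMIs in both libraries. Peg3, H19, Kcnq1ot1, Airn and Igf2r were all lower by CPM in in situ polyadenylated nuclei. Relative to the median protein-coding gene, Kcnq1ot1 and Airn were lower past 2-fold, while H19, Igf2r and Peg3 lay between 0.01 and 0.14 on the log2 scale. That is 2 called lower of 5, beside the 8.66% of all genes.

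**Figure D1:**
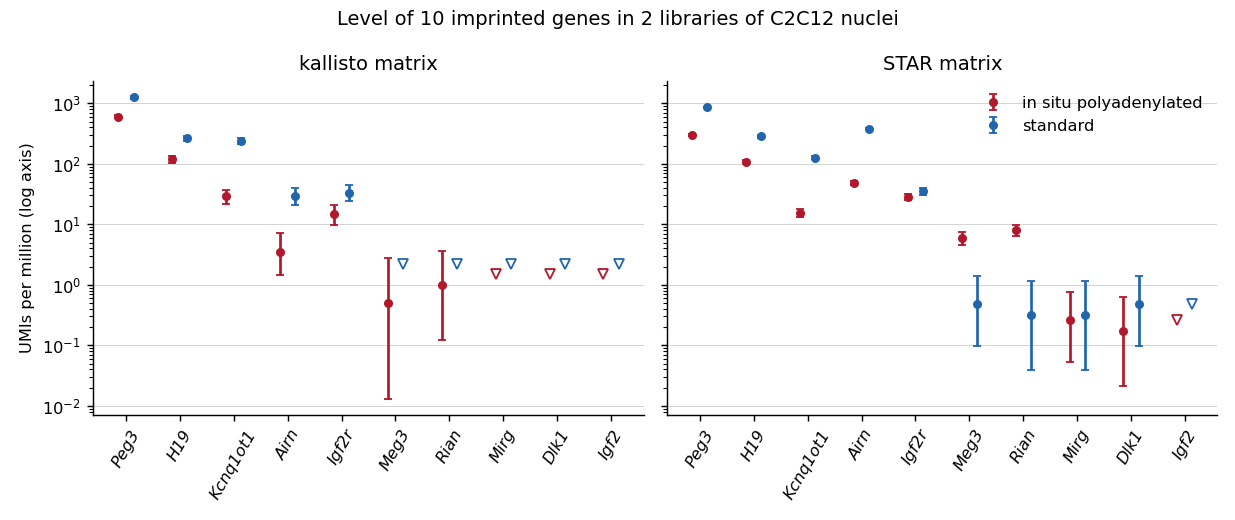
Level of each gene in CPM (log axis) in the kallisto matrix (left) and the STAR matrix (right), with red for in situ polyadenylated and blue for standard nuclei. Bars are 95% counting intervals, and open triangles mark genes with 0 UMIs at the level of the floor of 3 UMIs. Peg3 is the highest gene in both panels, at 603 and 1250 CPM with kallisto.

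The kallisto matrix counts reads on annotated transcripts, and its levels are given here per kb of exon. Whether UMIs grow with exon length in this assay was not tested, so the order per kb is a description only. By CPM alone, standard nuclei had 1250 of Peg3, 264 of H19, 239 of Kcnq1ot1, 33.3 of Igf2r and 28.9 of Airn. The place of Kcnq1ot1 thus depended on the division by length. In standard nuclei H19 had 92.7 CPM per kb (interval 83.4 to 103) and Peg3 had 91.5 (87.2 to 95.9), which did not differ beyond counting error. Igf2r followed at 3.55 CPM per kb (2.60 to 4.74), then Airn at 2.74 (1.96 to 3.74) and Kcnq1ot1 at 2.54 (2.28 to 2.83), and the intervals of these neighbours overlapped. In in situ polyadenylated nuclei Peg3 and H19 again led, at 44.2 (41.7 to 46.7) and 41.8 (36.6 to 47.5) CPM per kb of exon. Igf2r had 1.57 (1.05 to 2.25), Airn 0.336 (0.135 to 0.693) and Kcnq1ot1 0.308 (0.233 to 0.399). There, the interval of Igf2r stood above those of Airn and Kcnq1ot1. The STAR matrix aligns reads to the genome, so its levels were set per kb of gene body. In standard nuclei the order was H19 at 60.2, Peg3 at 32.3, Airn at 3.18, Kcnq1ot1 at 1.06 and Igf2r at 0.406 CPM per kb, each with an interval clear of its neighbours. In in situ polyadenylated nuclei H19 had 23.2, Peg3 11.2, Airn 0.405 (0.372 to 0.440), Igf2r 0.319 (0.285 to 0.356) and Kcnq1ot1 0.129 CPM per kb (0.111 to 0.149), so Igf2r and Kcnq1ot1 stood in the reverse order. Meg3, at 0.188 (0.146 to 0.239), and Rian, at 0.138 (0.111 to 0.169), lay near Kcnq1ot1 there.

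Kcnq1ot1, the antisense RNA of the Kcnq1 domain, had the lowest relative ratio of the 10 genes in both matrices, with an interval that overlapped that of Airn. Its gene lies at chr7:142731402-142850327 on the minus strand (GRCm39), inside Kcnq1 on the plus strand, and exons of the annotation cover 93.9 kb of its 119 kb. It had 57 kallisto UMIs (28.9 CPM) in in situ polyadenylated nuclei and 330 (239 CPM) in standard nuclei. The CPM was 8.27-fold higher in standard nuclei, and the relative log2 ratio was -1.86 (-2.29 to -1.45). The STAR matrix gave 177 and 790 UMIs, the same CPM difference of 8.26-fold and a relative log2 ratio of -1.12 (-1.37 to -0.89). Kcnq1, the potassium channel gene that surrounds it, had 0 kallisto UMIs in both libraries and 35 and 23 STAR UMIs.

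In the kallisto matrix, the level of Kcnq1ot1 also moved with the depth of the nucleus. Standard nuclei of over 750 to 1000 UMIs had 153 CPM (121 to 192), those of over 1000 to 1500 UMIs had 182 (144 to 227) and those over 1500 UMIs had 385 (330 to 445). In the same bins of in situ polyadenylated nuclei the levels were 27.8 (14.8 to 47.5), 24.1 (12.4 to 42.0) and 30.8 CPM (20.9 to 43.7). The deepest standard nuclei were thus above the other bins beyond counting error, and in situ polyadenylated nuclei showed no such step. H19 and Peg3 did not follow: standard nuclei had 302, 252 and 234 CPM of H19 and 1301, 1222 and 1220 CPM of Peg3 over the bins. Airn in standard nuclei had 22.5 (11.2 to 40.2), 25.7 (12.8 to 46.0) and 38.7 CPM (22.9 to 61.1), with intervals that overlapped. STAR levels were not split by depth, so the size of the step with STAR was not measured. The ratio of STAR to kallisto UMIs of Kcnq1ot1 was 2.39 in all standard nuclei and 1.80 in those over 1500 UMIs. For Peg3 the ratios were 3.10 and 3.15.

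Part of the kallisto UMIs of Kcnq1ot1 lay in few nuclei. Of the 1123 standard nuclei, 949 had 0 UMIs, 45 had 2, and the highest had 16. A group of 13 nuclei with 5 or more UMIs held 89 of the 330. Those 13 had a median depth of 2730 UMIs, from 784 to 8862, against 996 for all standard nuclei. In in situ polyadenylated nuclei 1 nucleus reached 5 UMIs, with 7 UMIs of Kcnq1ot1 and a depth of 4002. Without the highest nucleus of each library the relative log2 ratio was -2.01, and without the 5% deepest nuclei, which could hold doublets, it was -1.83. Of the 174 standard nuclei with any Kcnq1ot1 count, 22 held a value that was not whole, while H19 and Peg3 had 0 such values. Standard nuclei with 5 or more UMIs of a gene held 27% of the kallisto UMIs of Kcnq1ot1, 27.8% of Peg3 and 7.4% of H19. With STAR such nuclei held 140 of 790 UMIs of Kcnq1ot1, 619 of 1763 of H19 and 3958 of 5358 of Peg3. Kcnq1ot1 was in 40.9% of standard nuclei with STAR.

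**Figure D2:**
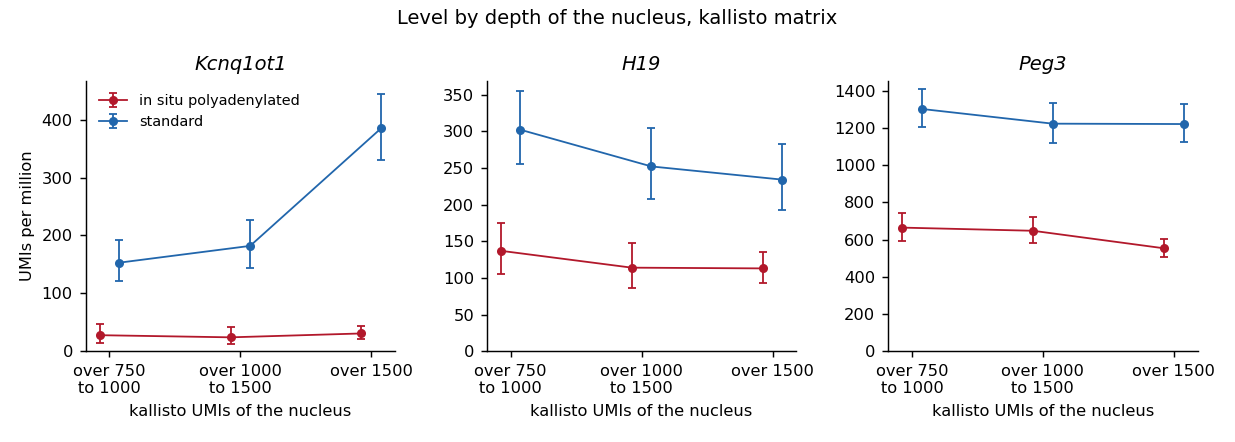
CPM of Kcnq1ot1, H19 and Peg3 (kallisto) in nuclei of 3 depth bins, with red for in situ polyadenylated and blue for standard nuclei and bars for 95% counting intervals. Kcnq1ot1 in standard nuclei steps from 153 and 182 to 385 CPM in the deepest bin, while the other lines are level or fall.

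Airn, the antisense RNA that starts within Igf2r, spans chr17:12960198-13079299 on the plus strand, and introns make up 91.1% of the body. The kallisto matrix held 7 UMIs (3.55 CPM) in in situ polyadenylated and 40 (28.9 CPM) in standard nuclei. The relative log2 ratio was -1.84 (-3.24 to -0.66), a call that rests on 7 UMIs. It was -1.23 in nuclei of 750 to 1500 UMIs, where the call was lost. The STAR matrix held 557 and 2361 UMIs, 48.2 and 378 CPM, with a relative log2 ratio of -1.05 (-1.19 to -0.92). Over all barcodes deposited with the STAR matrix the ratio was -0.98, just inside 2-fold.

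Airn differed widely between the 2 ways of counting. STAR gave 59.0 times the kallisto UMIs of Airn in standard nuclei (43.2 to 82.8) and 79.6 times in in situ polyadenylated nuclei (38.4 to 199). The median lncRNA had ratios of 3.42 over 131 genes and 3.64 over 68 genes, and 2 and 0 lncRNAs exceeded Airn. Meg3 at 68.0 (11.8 to 2725) and Rian at 46.0 (12.4 to 386) had intervals that overlapped that of Airn in in situ polyadenylated nuclei, on 1 and 2 kallisto UMIs. The matching ratios of Kcnq1ot1 were 2.39 and 3.11, and those of H19 were 4.83 and 5.36. The strand and intron settings of the STAR counts were not given in the sources used here, and Airn shares part of its body with Igf2r on the opposite strand.

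Igf2r, the receptor that clears IGF2 from the cell surface, lies at chr17:12901293-12988614 on the minus strand. It had 29 kallisto UMIs (14.7 CPM) in in situ polyadenylated and 46 (33.3 CPM) in standard nuclei, a relative log2 ratio of 0.01 (-0.71 to 0.71). With STAR it had 322 and 221 UMIs and a relative log2 ratio of 1.58 (1.33 to 1.83), past 2-fold higher, although its CPM of 27.9 was below the 35.4 CPM of standard nuclei. The direction of Igf2r thus depended on the matrix and on the scaling. The STAR over kallisto ratio was 4.80 (3.48 to 6.75) in standard nuclei, near the median protein-coding gene at 5.20, and 11.5 (7.81 to 17.6) in in situ polyadenylated nuclei, where the median was 4.46.

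**Figure D3:**
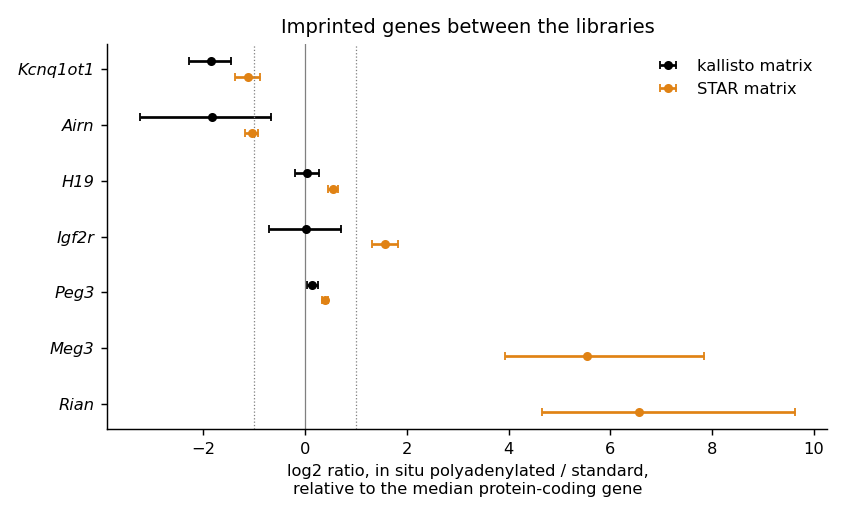
Relative log2 ratio of in situ polyadenylated over standard nuclei for the genes with a ratio, in the kallisto (black) and STAR (orange) matrices, with 95% counting intervals and dotted lines at 2-fold. Kcnq1ot1 and Airn lie beyond -1 in both matrices, while Igf2r is at 0.01 and 1.58, and Meg3 and Rian have ratios in STAR only.

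The oligo(dT) primer of the assay can also prime on A-rich sequence inside a transcript, so stretches of 12 bases with at least 11 A were counted on the sense strand of GRCm39. Airn had 38 stretches, 33 of them in introns and 5 in exons, or 0.319 per kb of body, more than 80.8% of 172 lncRNA genes with at least 20 UMIs. Kcnq1ot1 had 22, 20 of them in exons, or 0.185 per kb, close to the lncRNA median of 0.152. Meg3 had 6 (0.192 per kb), Rian 8 (0.138 per kb) and Mirg 2 (0.102 per kb), and H19 and Igf2 had 0. Peg3, with 2 stretches (0.0752 per kb), and Igf2r, with 4 (0.0458 per kb), were under the protein-coding median of 0.138 over 8011 genes, while Dlk1, with 3 (0.285 per kb), was above 89.2% of them. Windows of 30 bases at the start of the longest stretch of 3 lncRNAs are printed to show what such a site looks like, with A in capitals:
Kcnq1ot1, exon, chr7:142780702-142780731, minus strand: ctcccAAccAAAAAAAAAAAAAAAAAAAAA
Airn, exon, chr17:13079119-13079148, plus strand: gttcttAcAcAAAAAAAAAAAAAAAAAAAA
Meg3, exon, chr12:109511691-109511720, plus strand: gAcAAgAccAAAAAAAAAAAAAAAAcAAAA
The stretches were 43, 42 and 30 bases long. Whether reads started there cannot be seen in gene counts.

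The last 30 bases of the annotated lncRNAs were searched, on the sense strand, for AATAAA, the usual poly(A) signal, which 34.7% of 32884 lncRNA genes and 44.2% of 21770 protein-coding genes held in that window. It was present in Kcnq1ot1, H19 and Meg3 and not in Rian, Mirg or Airn. Of the protein-coding genes, Igf2, Igf2r and Dlk1 held it, and Peg3, the gene with the most UMIs, did not. Variants of the signal were not searched, and whether these RNAs carried a tail was not tested. Windows of some of the lncRNAs are given with the hexamer in capitals:
Kcnq1ot1, chr7:142731402-142731431, minus strand: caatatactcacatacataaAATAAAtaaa
H19, chr7:142129262-142129291, minus strand: catcAATAAAtacagttacagtcattggtc
Meg3, chr12:109538136-109538165, plus strand: cAATAAAtttcttgttttaactaaagcagt
Airn, chr17:13079270-13079299, plus strand: catataaaaaataacaccttgaagcaacaa
The hexamer ended 4 bases before the annotated end in Kcnq1ot1, 20 in H19 and 23 in Meg3. The annotation used here (GENCODE M39) is later than the release of the matrices (GENCODE M28), and gene ends can differ between them.

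H19, a lncRNA that is abundant in embryonic and regenerating muscle, lies at chr7:142129262-142133957 on the minus strand and has 2.85 kb of exon. It had 235 kallisto UMIs (119 CPM) in in situ polyadenylated nuclei and 365 (264 CPM) in standard nuclei. The relative log2 ratio was 0.04 (-0.20 to 0.28), so H19 followed the median protein-coding gene. STAR gave 1260 and 1763 UMIs and a relative log2 ratio of 0.55 (0.44 to 0.65), with an interval clear of 0 but within 2-fold. The most UMIs of H19 in a nucleus were 4 with kallisto in the in situ polyadenylated and 8 in the standard library.

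Igf2, its neighbour at chr7:142204503-142220694, had 0 UMIs in the nuclei of both libraries in both matrices. With kallisto, 0 of 1335 and 0 of 1123 nuclei allow a share of nuclei with a UMI of up to 0.225% and 0.267% by the limit of 3 counts, and of up to 0.276% and 0.328% by the exact interval. The floor of 3 UMIs corresponds to 1.52 and 2.17 CPM, and in STAR to 0.260 and 0.481 CPM. Over every barcode of the kallisto matrix, Igf2 had 2 UMIs in the in situ polyadenylated and 0 in the standard library. H19 was thus read in both libraries and Igf2 was not detectable at this depth.

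Peg3, a zinc finger gene expressed in muscle progenitors, lies at chr7:6706882-6733468 on the minus strand and had the most UMIs of the 10, although per kb H19 was level with it (kallisto) or above it (STAR). It had 1191 kallisto UMIs (603 CPM) in in situ polyadenylated and 1728 (1250 CPM) in standard nuclei. The relative log2 ratio was 0.14 (0.03 to 0.25), small beside the 2-fold limit, and its sign turned without the centring (log2 CPM ratio -1.05). STAR gave 3427 and 5358 UMIs and a relative log2 ratio of 0.39 (0.33 to 0.45). Peg3 was found in 44.6% of in situ polyadenylated nuclei (42.0 to 47.4) and 65.9% of standard nuclei (63.0 to 68.7), with up to 22 and 17 UMIs per nucleus.

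The Dlk1 to Mirg cluster on chromosome 12 was at or near 0 in the kallisto matrix. Dlk1, a Notch pathway regulator at chr12:109418749-109429262, had 0 UMIs in both libraries, and so had Mirg at chr12:109696198-109715898. Meg3 (chr12:109506877-109538165) had 1 and 0 UMIs, and Rian (chr12:109570242-109628150), which hosts C/D box snoRNAs, had 2 and 0. No ratio was formed for these 4 genes.

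In the STAR matrix, Meg3 and Rian were found mainly in in situ polyadenylated nuclei. Meg3 had 68 UMIs (5.89 CPM, 4.57 to 7.47) in in situ polyadenylated and 3 (0.481 CPM, 0.0992 to 1.41) in standard nuclei. Its relative log2 ratio was 5.54 (3.93 to 7.85), and by CPM it was 12.2-fold higher in in situ polyadenylated nuclei, with a log2 interval of 2.01 to 5.93. Rian had 92 UMIs (7.97 CPM, 6.42 to 9.77) and 2 UMIs (0.321 CPM, 0.0388 to 1.16). Its relative log2 ratio was 6.56 (4.66 to 9.62), and the CPM ratio was 24.9-fold, with a log2 interval of 2.74 to 7.70. Both ratios rest on 3 or fewer standard UMIs. Dlk1 (2 and 3 UMIs) and Mirg (3 and 2 UMIs) were too low for a ratio.

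The Meg3 and Rian UMIs were spread thinly. The 68 of Meg3 came from 65 nuclei with at most 2 each, and the 92 of Rian from 87 nuclei with at most 3 each. Such STAR signal without kallisto counts was common: of 3107 genes with at most 3 kallisto UMIs in each library and at least 20 STAR UMIs, 45.6% were higher past 2-fold and 2.64% lower, with a median relative log2 ratio of 0.94. Read against that set, 3.57% of genes had a higher ratio than Meg3 and 2.06% a higher ratio than Rian. Another set held 10325 protein-coding or lncRNA genes with as few kallisto UMIs and a body of at least 10 kb. Per kb of body, Meg3 at 0.188 and Rian at 0.138 CPM stood above 98.5% and 97.8% of these in in situ polyadenylated nuclei. In standard nuclei they stood above 55.3% and 28.3%. Over all STAR barcodes the counts were 116 and 13 for Meg3 and 156 and 9 for Rian. Over all kallisto barcodes Meg3 had 24 and 5 UMIs (3.55 and 0.472 CPM). Rian had 9 and 34 UMIs there (1.33 and 3.21 CPM), so its direction over all barcodes was the reverse of that with STAR.

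The small RNA genes of these loci are of interest because mature miRNAs and snoRNAs carry no poly(A) tail. The annotation placed 61 miRNA and 23 snoRNA genes inside the 10 genes or between Meg3 and Mirg on their strand, 84 in all, of which 35 lay inside a host gene and 49 between hosts. Mir675 lies in H19 and Mir483 in Igf2, Meg3 held 2 miRNA genes, Rian 4 miRNA and 13 snoRNA genes, and Mirg 14 miRNA genes. All 84 were in the matrices, and each had 0 UMIs in both libraries with both kallisto and STAR, over all barcodes as well as in nuclei. Over the same nuclei, the whole snoRNA class had 3783 and 50 kallisto UMIs and 23920 and 153 STAR UMIs. The miRNA class had 365555 and 7054 kallisto UMIs, 296466 and 1 of them from a single gene. With STAR the class had 2320926 and 15176 UMIs, of which that gene held 660 and 1. How either matrix assigned a read that lay in both a host and an embedded gene was not tested. Whether the 49 between hosts overlapped other annotated genes was not tested either.

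Of the 22 miRNA genes inside these hosts, 21 matched RefSeq (GRCm38.p6), with 39 mature sequences of 20 to 25 bases. All are shorter than the 31 bases of a kallisto k-mer, while STAR kept matches of 16 bases or more. The sequences of the H19 and Igf2 miRNAs are printed with seeds (bases 2 to 8) in capitals, together with the only 2 of the 39 that shared a seed, both from Mirg:
miR-675-5p: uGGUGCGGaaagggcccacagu
miR-675-3p: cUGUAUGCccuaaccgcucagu
miR-483-5p: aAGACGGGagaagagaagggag
miR-483-3p: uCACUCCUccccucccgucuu
miR-453: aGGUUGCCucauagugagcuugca
miR-496a-5p: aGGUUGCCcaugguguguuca
The 39 sequences had 38 seeds in all, so nearly every mature sequence has a seed of its own.

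Barcodes of 1 to 100 UMIs were taken as a background of RNA outside nuclei, and each gene's share in nuclei was set against its share there. What these barcodes hold was not tested. In the standard library, 2.09% of 10730 genes were past 2-fold higher and 6.84% lower in nuclei, relative to the median protein-coding gene. In the in situ polyadenylated library, 1.16% of 8018 genes were higher and 13.1% lower. Airn was called higher in standard nuclei, at 28.9 CPM against 8.35 in low-UMI barcodes (40 and 20 UMIs), a relative log2 ratio of 1.85 (1.04 to 2.71). Against barcodes of over 100 and up to 500 UMIs it was 0.58.

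Kcnq1ot1 lay on opposite sides in the 2 libraries. In standard nuclei it had 239 CPM against 143 in low-UMI barcodes, a relative log2 ratio of 0.80 (0.58 to 1.02), and in in situ polyadenylated nuclei 28.9 against 64.2, a relative log2 ratio of -1.07 (-1.54 to -0.61). The second value turned to 0.47 (-0.13 to 1.07) against barcodes of over 100 and up to 500 UMIs, so its sign depended on which barcodes were taken as background. In standard nuclei the ratio against those barcodes was 1.38. Peg3 was higher in nuclei of both libraries within 2-fold, at 0.69 (0.56 to 0.82) and 0.99 (0.89 to 1.09), and H19 was lower in both, at -0.74 (-0.97 to -0.51) and -0.52 (-0.69 to -0.34). Neither kept its size against barcodes of over 100 and up to 500 UMIs, where Peg3 was at 0.06 (-0.05 to 0.18) and 0.07 (-0.01 to 0.14) and H19 at -0.10 (-0.36 to 0.16) and -0.17 (-0.34 to -0.01). Against barcodes of 1 to 10 UMIs, H19 was at -1.89 in the in situ polyadenylated library, past 2-fold, and at -0.76 in the standard library. Igf2r was at -0.28 (-1.03 to 0.45) and 0.52 (-0.07 to 1.10), and its intervals held 0.

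Meg3 had more kallisto UMIs outside nuclei than in them, with 1 in in situ polyadenylated nuclei and 23 in low-UMI barcodes, a relative log2 ratio of -4.38 (-9.74 to -1.76). Of those 23, 22 lay in barcodes of 1 to 10 UMIs, which held 178851 of the 2055634 low-range UMIs. Dlk1 had 0 and 7 UMIs there, all 7 in barcodes of 1 to 10 UMIs. With the floor of 3 UMIs its relative log2 ratio was -1.08, and the exact interval reached up to -0.38. In the standard library Rian had 0 UMIs in nuclei and 20 in low-UMI barcodes, and 14 more in barcodes of over 100 and up to 750 UMIs. Against low-UMI barcodes its ratio with the floor was -1.88, with an exact interval up to -1.45. The in situ polyadenylated library had 6 low-UMI counts of Rian.

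**Figure D4:**
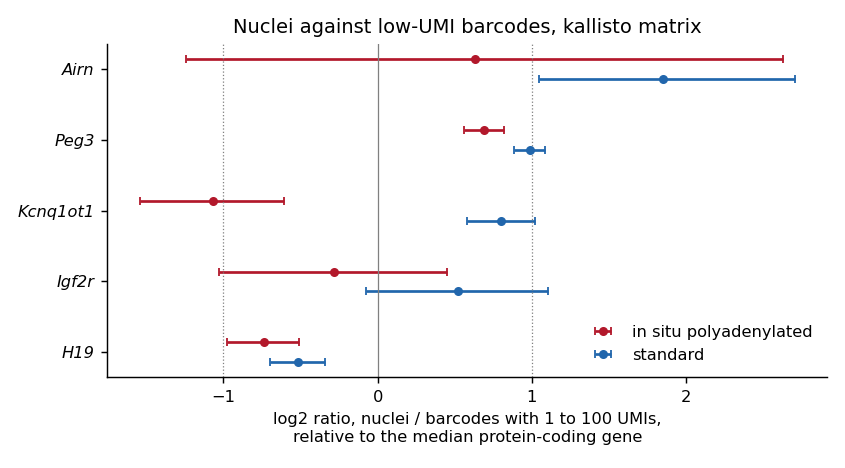
Relative log2 ratio of nuclei over barcodes with 1 to 100 UMIs for the 5 genes with at least 5 kallisto UMIs in nuclei and in low-UMI barcodes of each library, with 95% counting intervals and dotted lines at 2-fold. Airn in the standard library is at 1.85, and Kcnq1ot1 is at 0.80 in the standard and -1.07 in the in situ polyadenylated library.

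The share of nuclei with a UMI was compared after thinning each nucleus to 750 UMIs, which left out 0 and 3 nuclei, and beside the share that 750 draws from the library's own low-UMI profile would give. Peg3 was seen in 30.9% of in situ polyadenylated nuclei (28.5 to 33.5) and 54.6% of standard nuclei (51.6 to 57.5), above the profile's 25.8% and 39%. That excess depended on the barcodes chosen, since those of over 100 and up to 500 UMIs held 604 and 1208 CPM of Peg3, against 603 and 1250 in nuclei. H19 was seen in 7.57% (6.20 to 9.12) and 16.3% (14.2 to 18.6), below the profile's 14.6% and 25.6%. Before thinning, H19 was in 13.1% and 23.2% of nuclei.

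Kcnq1ot1 was seen in 1.72% of thinned in situ polyadenylated nuclei (1.10 to 2.57), under the profile's 4.70%, and in 10.8% of standard nuclei (9.05 to 12.8), near its 10.2%. Unthinned, the shares were 3.07% and 15.5%. Airn reached 2.32% of standard nuclei (1.52 to 3.38) where the profile gives 0.625%, and 0.449% of in situ polyadenylated nuclei (0.165 to 0.976) where it gives 0.182%. Its unthinned shares were 3.38% and 0.524%. Igf2r, at 1.12% and 1.88%, was close to the profile's 1.41% and 1.80%, with 2.02% and 3.83% unthinned. In STAR counts thinned to the same 750 UMIs, Airn was in 22.0% of standard nuclei (19.6 to 24.5) and 4.14% of in situ polyadenylated nuclei (3.13 to 5.36).

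**Figure D5:**
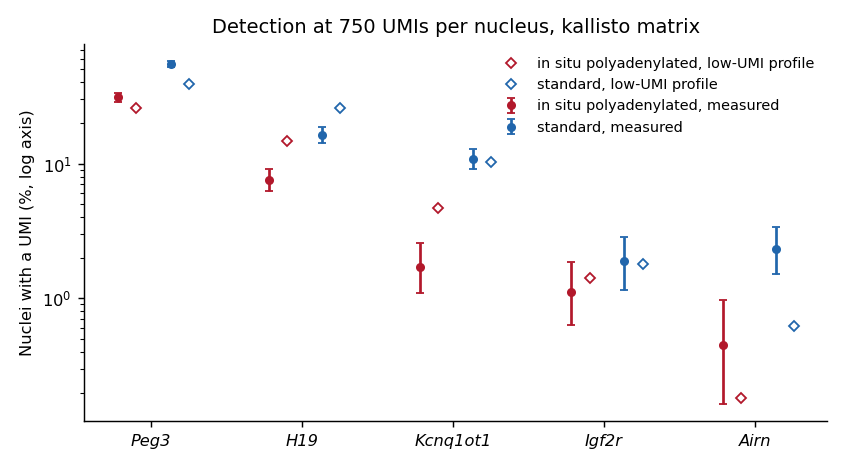
Percent of nuclei with a kallisto UMI after thinning to 750 UMIs (filled circles, 95% binomial intervals, log axis) beside the percent that draws from the low-UMI profile would give (open diamonds), with red for in situ polyadenylated and blue for standard nuclei. Peg3 in both libraries and Airn in the standard library sit above their diamonds, and H19 sits below its diamonds in both.

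Airn and Igf2r, which overlap, had enough STAR counts to ask whether they were seen in the same nuclei. After thinning STAR counts to 2000 UMIs, both were present in 43 standard nuclei where the product of their shares gives 40.9 (Pearson r 0.05), and in 6 in situ polyadenylated nuclei where it gives 7.48 (r -0.02). H19 and Peg3, which lie far apart on chromosome 7, were both present in 127 standard nuclei where the product gives 99.8 (r 0.14 over 1120 nuclei, kallisto, 750 UMIs), and in 47 in situ polyadenylated nuclei where it gives 31.2 (r 0.15). Kcnq1ot1 and H19 were both present in 19 nuclei where the product gives 19.8. These values describe sparse counts from shared libraries.

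By the Pearson correlation of thinned counts over 1120 standard nuclei, among 778 genes with at least 200 UMIs, the genes most like Kcnq1ot1 were Eef1a1 (0.22), Scd2 (0.21) and 6820431F20Rik (0.21). Those most like H19 were Ttn (0.17), Peg3 (0.14) and Zim1 (0.12), and those most like Peg3 were Zim1 (0.14), H19 (0.14) and Malat1 (0.13). Zim1, a zinc finger gene, is an imprinted neighbour of Peg3, and Ttn encodes the muscle protein titin. All of these correlations were weak.

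A list of 70 other imprinted genes gave the wider setting, and 68 were found in the matrices. Only 22 had at least 20 kallisto UMIs in both libraries together, 40 had at most 3 in each and 26 had 0 in both. Of the 22, 1 was called higher (4.55%) and 2 lower (9.09%), with a median relative log2 ratio of -0.30, beside -0.21 over all genes tested. With STAR, 39 had at least 20 UMIs, of which 8 were higher (20.5%) and 0 lower, with a median of 0.16 beside 0.08. Over all genes tested with STAR, 15% were higher and 2.25% lower.

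With kallisto, the genes called lower were Mcts2 (2 and 18 UMIs, relative log2 ratio -2.49) and Copg2 (3 and 23 UMIs, -2.26). The gene called higher was Gab1 (18 and 13 UMIs, 1.15), a signalling adaptor. None of these calls held with STAR, where Gab1 was at -0.12 (165 and 368 UMIs) and Copg2 at -0.44 (128 and 356 UMIs). Mcts2 had 0 STAR UMIs in both libraries. Usp29 (7 and 22 UMIs, -0.97), Cd81 (20 and 52, -0.70) and Impact (52 and 128, -0.62) came next at the low end, with intervals of Usp29 and Cd81 that held 0. At the high end were Trappc9 (55 and 52 UMIs, 0.76), Zrsr1 (32 and 35, 0.55), Snhg14 (26 and 31, 0.42) and Atp10a (29 and 36, 0.37). With STAR the sign turned for Trappc9 (-0.29), Snhg14 (-0.22), Atp10a (-0.30) and Cd81 (0.51). It stayed for Zrsr1 (0.54), Usp29 (-0.26) and Impact (-0.19). Snhg14 is the host RNA of the snoRNA clusters at the Prader-Willi locus. The most abundant in standard nuclei were Gnas, the stimulatory G protein subunit (212 and 266 UMIs, 0.35), Zim1 (119 and 235, -0.30), H13 (90 and 192, -0.42), Axl (100 and 179, -0.16) and Impact.

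Of the neighbours that were chosen by name, most were at or near 0. Cdkn1c, a cell cycle inhibitor controlled by the Kcnq1ot1 domain, had 0 kallisto UMIs in both libraries and 6 and 4 STAR UMIs. Nctc1, downstream of H19, had 0 kallisto and 4 and 3 STAR UMIs, and Igf2os, antisense to Igf2, had 0 kallisto and 2 and 3 STAR UMIs. Rtl1, of the same chromosome 12 cluster as Rian, had 0 and 1 kallisto and 3 and 1 STAR UMIs. Usp29 and Zim1, both neighbours of Peg3, had 106 and 259 STAR UMIs and 650 and 1205 STAR UMIs. Other neighbours on the list were also read: Nap1l4 (45 and 98 kallisto UMIs), Tssc4 (29 and 58) and Cd81 lie near Kcnq1ot1, and Slc22a2, near Airn, had 0 kallisto and 235 and 22 STAR UMIs.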

How the data were processed

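The study's methods give the processing of the reads. The authors trimmed them with cutadapt 3.4, pseudoaligned them with kallisto 0.48.0 (strand-aware, k-mers of 31 bases) and bustools 0.41.0, and aligned them with STAR 2.7.10a, on GRCm39 with GENCODE M28. The kallisto matrices, as deposited, list estimated counts for every barcode, and 1.10% and 2.65% of their entries are not whole. The deposited STAR matrices hold whole-number counts for 3791 and 8474 barcodes, whose choice was not given in the sources used here. Rows that match several genes carry an uncertainty that no interval covers.

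Counts were summed per gene over nuclei and rounded, with Python 3.11.15, numpy 2.4.6 and scipy 1.17.1. Ratio code was tested on simulated data. Doublets were not called. GENCODE M39 gave coordinates for 54749 of 55414 genes, and miRNA sequences came from RefSeq. The 10 genes, the lists and the settings were chosen with earlier results of these data known. Named other imprinted genes were the 5 highest, the 5 lowest and the 5 most abundant of those over the minimum, and 8 set by name, of which Peg3os, like Nespas of the list, was not matched by symbol.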

Additional observations from a re-analysis of the deposited data

Results flagged for a closer look

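Some imprinted genes gave STAR counts in in situ polyadenylated nuclei above those of the standard nuclei, relative to the median protein-coding gene, while the kallisto matrix held at most 3 UMIs in each library. They were picked out because the signal lies outside the main measurement, and the difference was not tested. In this setting 45.6% of all genes were higher past 2-fold, so the calls are to be read against that share. Meg3 had 68 STAR UMIs against 3 in standard nuclei, and Rian had 92 against 2. Slc22a2, a transporter gene near Airn, had 235 against 22 (relative log2 ratio 4.45), Ppp1r9a 77 against 15 (3.39) and Nnat 58 against 4 (4.89). Kcnq1 had 35 against 23, Smoc1 21 against 13, Rasgrf1 19 against 10, Begain 16 against 11 and Grb10 15 against 10, with relative log2 ratios between 1.57 and 1.96. By CPM, without the centring, the log2 ratios of Kcnq1, Smoc1, Begain and Grb10 were below 0.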

How the results depend on the processing

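No paired analysis was possible because a single library stands for each group, and leaving out a replicate was likewise not possible. The relative log2 ratio of Kcnq1ot1 stayed past 2-fold lower in every setting tried: -2.31 with a minimum of 1500 UMIs, -1.12 with STAR, -1.15 over all STAR barcodes, -3.05 by CPM without centring, and -3.05 with STAR by CPM. For H19 the values were 0.55 with STAR, 0.41 over all STAR barcodes, -1.15 by CPM and -1.37 with STAR by CPM. For Igf2r they were 1.58, 1.74 and -1.18 by CPM. Peg3 had 0.39 with STAR, 0.37 over all STAR barcodes, 0.36 and 0.0032 with no minimum and with 200 UMIs for the median gene, and it turned to -1.05 by CPM and -1.53 with STAR by CPM. The 10 genes had 2 called lower and 0 higher. The number lower was 1 in nuclei of 750 to 1500 UMIs, 5 by CPM, 1 over all STAR barcodes and 4 with STAR by CPM. By CPM, 73.2% (kallisto) and 82.1% (STAR) of all genes were lower past 2-fold, so those counts say little of the 10. With STAR over the same nuclei 2 were lower, beside 2.25% of all genes. The number higher was 3 with STAR, 3 over all STAR barcodes and 2 with STAR by CPM. Of all genes, 15% were higher with STAR and 4% with STAR by CPM. Meg3 and Rian, among the 3, belong to the genes with few kallisto UMIs, of which 45.6% were higher. Of the other imprinted genes, 0 were lower and 0 higher with at least 50 UMIs, and 0 were lower and 8 higher with STAR. Kcnq1ot1 in in situ polyadenylated nuclei over low-UMI barcodes turned to 0.47 with barcodes of over 100 and up to 500 UMIs. The settings over all STAR barcodes, STAR by CPM and without the highest nucleus were added after the data were seen, and the cause of these changes was not tested. Depth limits Airn and Igf2r with kallisto (7 to 46 UMIs) and every gene of the chromosome 12 cluster.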
